A study of Mus musculus with 36 samples.

Results

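Immediate early genes are switched on within minutes of a stimulus, without new protein synthesis, and their transcripts are short-lived. 10 of them were described in mouse liver by matching gene names in a table of 54532 genes: *Fos*, *Fosb*, *Jun*, *Junb*, *Egr1*, *Atf3*, *Ier2*, *Ier3*, *Dusp1* and *Btg2*. All 10 had at least 100 counts summed over the libraries, as did 17994 genes in the table, and all 10 were tested. The livers came from male mice of the B6.129S1-Thrbtm1Df/J line bred on C57Bl/6NCrl, aged 2 to 3 months, fed chow and kept under 12 h of light and 12 h of dark. THRBKO mice were homozygous for the targeted allele, which removes both isoforms of thyroid hormone receptor beta. Controls, called THRBWT here as in the labels (WT), were THRB+/- mice, which also carried 1 targeted allele, so no mouse had 2 intact copies. Mice were culled by cervical dislocation every 4 h at ZT2, ZT6, ZT10, ZT14, ZT18 and ZT22, where ZT counts hours from lights on, with 3 mice per genotype and time, named a, b and c, and 36 poly-A selected libraries in all.

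In most cells the family works as a relay. Kinase cascades started by growth factors, hormones or stress phosphorylate factors such as SRF partners and CREB that are already bound near these genes, and transcription begins at once. *Fos*, *Fosb*, *Jun* and *Junb* encode subunits of AP-1, a dimeric transcription factor, *Egr1* encodes a zinc finger factor and *Atf3* a factor of the ATF/CREB family. *Ier2* and *Ier3* encode early response proteins. *Dusp1* encodes a phosphatase that switches mitogen-activated kinases off again, and *Btg2* a protein that restrains proliferation. In liver the family is known for its rise after partial hepatectomy and during acute stress.

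The bases upstream of 4 members are shown because these genes had the patterns on which the results turn. *Fos* and *Fosb* were, with *Egr1*, the members with the widest spread between mice, and *Fos* and *Fosb* varied together. *Junb* and *Btg2* differed most clearly between times. The sequences are from RefSeq on GRCm38.p6, 180 bases each, written 5′ to 3′ on the strand of the gene and ending before the start that RefSeq gives. For *Junb* and *Btg2* that start lies outside the gene as annotated in the count table, and for *Fosb*, *Dusp1* and *Ier3* slightly inside it. For *Atf3*, on the minus strand, it lies far inside. The stretch searched there was chr1:191183334-191183583, and the gene as counted reaches 191218039. Distances are counted from the RefSeq start. Capitals mark the letters TGACG on either strand, the core of the cyclic AMP response element.
Fos, chr12:85473710-85473889, plus strand: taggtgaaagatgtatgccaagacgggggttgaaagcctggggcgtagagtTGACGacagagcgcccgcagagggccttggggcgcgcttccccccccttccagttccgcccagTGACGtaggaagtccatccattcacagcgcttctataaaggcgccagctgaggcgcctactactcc
Fosb, chr7:19310052-19310231, minus strand: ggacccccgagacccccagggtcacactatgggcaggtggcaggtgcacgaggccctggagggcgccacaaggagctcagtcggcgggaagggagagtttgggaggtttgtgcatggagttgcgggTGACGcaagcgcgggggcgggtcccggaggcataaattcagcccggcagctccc
Junb, chr8:84978749-84978928, minus strand: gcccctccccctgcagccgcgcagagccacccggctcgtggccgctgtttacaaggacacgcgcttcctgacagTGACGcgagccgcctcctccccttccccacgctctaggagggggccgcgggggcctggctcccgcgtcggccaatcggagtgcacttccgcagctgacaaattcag
Btg2, chr1:134079156-134079335, minus strand: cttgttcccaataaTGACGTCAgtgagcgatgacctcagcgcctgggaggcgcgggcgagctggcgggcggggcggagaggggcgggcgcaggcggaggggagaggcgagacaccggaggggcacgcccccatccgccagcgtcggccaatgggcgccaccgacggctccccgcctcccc

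RefSeq upstream sequence was matched for 8 of the 10 members, all but *Egr1* and *Ier2*, and was searched over 250 bases before the start on both strands. TGACG was found in 6 of these 8, among them *Atf3* with its window inside the counted gene, against 17.8% of all 32851 upstream sequences of that length. The whole palindrome TGACGTCA, which contains TGACG on both strands, was found upstream of *Btg2* (166 bases before the start) and *Dusp1* (143 bases), against 1.55% of all. The E-box CACGTG, the element of the circadian clock factors, was found upstream of *Dusp1* only among the 8, against 6.02% of all. AGGTCA, the half-site to which thyroid hormone receptors bind, was found upstream of *Btg2* only, 150 bases before the start, against 14% of all. Neither the AP-1 element TGANTCA (6.75% of all) nor the serum response CArG box (1.47%) was found in any of the 8 windows. Sequence farther than 250 bases upstream, and all sequence near *Egr1* and *Ier2*, was not searched. These are matches of letters and not measured binding, and the TGACG search was added after the sequences had been seen.

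Library totals were between 29063273 and 39913574 counts in THRBWT and between 31008555 and 42530551 in THRBKO. The 8 clock genes checked differed between times in both genotypes, and the fitted peak of *Dbp*, for example, was at 9.92 h in THRBWT and 10.4 h in THRBKO. *Thrb* itself, counted over the whole gene, was between 24.3 and 38.5 CPM (counts of a gene relative to the scaled library total, the usual rate for libraries of unequal depth) in THRBWT and between 26.2 and 37.7 CPM in THRBKO. Gene counts do not separate transcripts of the targeted allele from others, so they gave no check of the genotype labels. Summed markers of hepatocytes were between 66665 and 96500 CPM over the 36 livers.

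The members differed widely in level. Per kilobase of gene length, *Ier2* was highest with 21.2 CPM averaged over all 36 livers, followed by *Dusp1* with 16.0, *Junb* with 7.93, *Jun* with 5.55, *Btg2* with 3.41 and *Egr1* with 1.30. *Ier3* had 0.888, *Atf3* 0.849 and *Fos* 0.451, and *Fosb* was lowest at 0.0741. Each pair of neighbours in this order overlapped within 1 SD over the livers, which was 4.82 for *Ier2* and 6.82 for *Dusp1* (CPM per kilobase, n = 36). In reads, *Dusp1* had between 483 and 3096 counts per library and *Fosb* between 1 and 61, so counting error weighed most on *Fosb*, *Fos* (5 to 135 counts), *Ier3* (15 to 67) and *Atf3* (14 to 176). Library preparation did not keep strand, so reads of overlapping antisense transcripts cannot be told apart from those of a member. The genes lie on 7 chromosomes of GRCm38, among them *Fos* at chr12:85473890-85477273, *Fosb* at chr7:19302696-19310051, *Junb* at chr8:84974484-84978718 and *Btg2* at chr1:134075170-134079120.

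**Figure D1:**
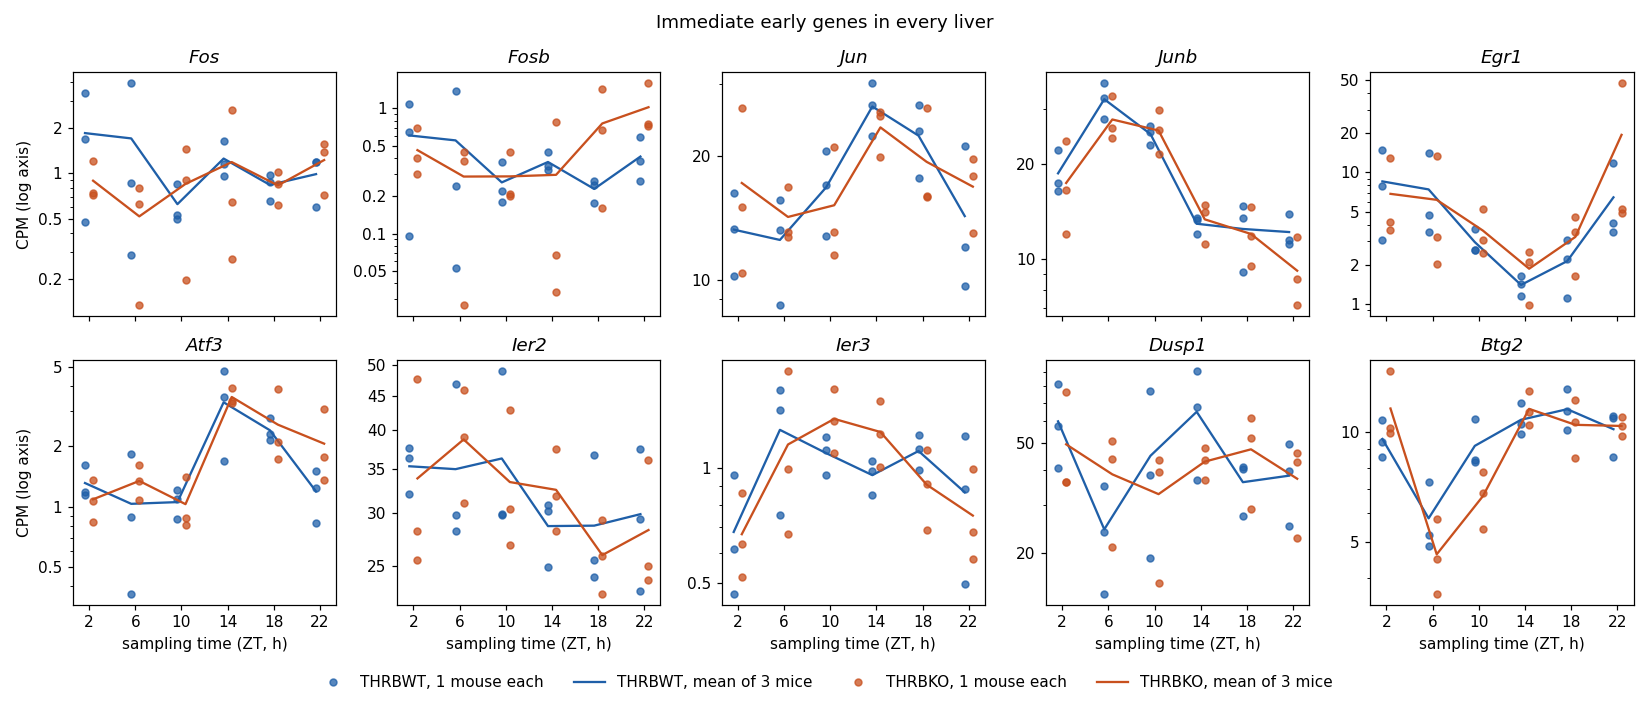
Level of the 10 immediate early genes in each liver, in CPM on a log axis, against sampling time in h, with THRBWT in blue and THRBKO in orange. Points are single mice and lines join the means of 3 mice. *Junb* is highest at ZT6 in both genotypes, *Atf3* at ZT14, and the points of *Fos* and *Fosb* scatter widely within a time.

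The first comparison asked whether loss of the receptor shifted the family in liver. With sampling time as a covariate, edgeR called none of the 10 members (adjusted p under 0.05) but 171 of all tested genes, or 0.95%. At an unadjusted p under 0.05 the count of members was also 0, against 12.1% of all genes. 5 members had higher and 5 had lower estimates in THRBKO, where 49.5% of all genes had higher ones, and their median log2 fold change was -0.000978, beside -0.00112 over all genes. The difference was largest for *Egr1*, at 0.38 ± 0.32 (log2, standard error, adjusted p = 0.702), and *Fos*, at -0.36 ± 0.31 (adjusted p = 0.717). Each of these 2 values rested on 1 library: without mouse b of THRBKO at ZT22 the estimate of *Egr1* was 0.0474, and without mouse b of THRBWT at ZT6 that of *Fos* was -0.10. It was 0.26 ± 0.38 for *Fosb* (0.0926 to 0.549 with 1 library left out at a time), 0.18 ± 0.16 for *Atf3* and -0.11 ± 0.08 for *Junb*, which had the smallest adjusted p, 0.637. *Btg2* (-0.08 ± 0.08), *Dusp1* (-0.06 ± 0.19), *Jun* (0.04 ± 0.12), *Ier2* (-0.01 ± 0.10) and *Ier3* (0.01 ± 0.14) were nearer to 0. The errors differed as much as the estimates: they were about 0.1 for *Junb*, *Btg2*, *Ier2* and *Jun* and over 0.3 for *Egr1*, *Fos* and *Fosb*, so that the interval of the difference was widest for these 3. Without time as a covariate, 0 members passed at an adjusted or an unadjusted p under 0.05, against 0.361% and 7% of all genes.

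**Figure D2:**
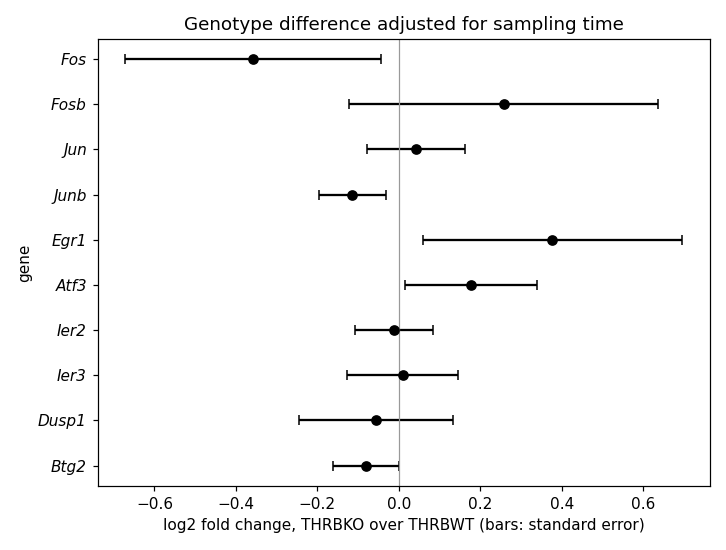
Log2 fold change of THRBKO over THRBWT with sampling time as a covariate (x axis) for each gene (y axis), from 18 livers per genotype, with standard errors as bars. The bars of *Fosb*, *Egr1* and *Fos* are the widest, and no member passed the test.

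At single sampling times no member passed at an adjusted p under 0.05 either. Of all genes, 0.0278% passed at ZT2, 0.0111% at ZT6, 0.0167% at ZT10 and ZT14, and 0.0222% at ZT18 and ZT22. At an unadjusted p under 0.05, 1 member passed at ZT6, 1 at ZT10 and 1 at ZT22, and none at the other times. The shares of all genes were 5.43%, 4.37%, 4.12%, 5.34%, 5.36% and 4.73% from ZT2 to ZT22. With 10 members, a count of 1 is the smallest above 0.

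The first was *Fos* at ZT6, with an estimate of -1.72 ± 0.77 (log2, unadjusted p = 0.0337 in edgeR, adjusted p = 0.9996). The THRBWT mice had 0.856, 3.95 and 0.290 CPM, and the THRBKO mice 0.628, 0.134 and 0.793 CPM. A single THRBWT mouse was high, and the other 2 lay within or near the range of the THRBKO mice, so the groups overlapped.

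The second was *Egr1* at ZT22, with an estimate of 1.57 ± 0.74 (log2, unadjusted p = 0.0433 in edgeR, adjusted p = 0.988). The THRBWT mice had 4.12, 3.52 and 11.8 CPM, and the THRBKO mice 5.27, 47.7 and 4.90 CPM. Mouse b of THRBKO had the highest *Egr1* of all 36 livers, and the other THRBKO mice lay inside the THRBWT range.

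The third was *Btg2* at ZT10, with an estimate of -0.45 ± 0.18 (log2, unadjusted p = 0.0197 in edgeR, adjusted p = 0.999992). The THRBWT mice had 10.8, 8.39 and 8.29 CPM, and the THRBKO mice 5.43, 7.79 and 6.84 CPM. Here the groups did not overlap. Over all genes, the share without overlap was 12.9% at ZT2, 8.41% at ZT6, 7.95% at ZT10, 10.2% at ZT14, 10.4% at ZT18 and 9.94% at ZT22. The only other pair without overlap was *Fosb* at ZT22, with 0.266, 0.383 and 0.589 CPM in THRBWT and 0.746, 0.726 and 1.60 CPM in THRBKO. Both counts, 1 member of 10 at each of these times, are near that background.

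Whether the genotype difference itself depended on time was tested with the interaction of both. No gene passed at an adjusted p under 0.05 among the 17994 (0% called) in edgeR, and 484 genes (2.69%) but no member did so unadjusted. *Btg2* had the smallest unadjusted p of the members, 0.0777. The test of a difference in 24-h rhythm also called 0 genes (0%), with 553 genes (3.07%) and no member passing unadjusted.

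The second comparison asked which members followed the time of day. *Junb*, *Atf3* and *Btg2* did in both genotypes, *Jun* passed in THRBWT and not in THRBKO, and *Egr1* passed in THRBKO and, depending on the filter and the tool, in THRBWT. No difference between genotypes in these courses passed the interaction test. That is 4 of 10 members in THRBWT, where 26.4% of all genes passed at an adjusted p under 0.05, and 4 of 10 in THRBKO, where 24.9% passed. With the 36 livers in 1 fit and genotype as a covariate, a fit added after the data were seen, 6 members passed (*Junb*, *Btg2*, *Atf3*, *Egr1*, *Jun* and *Ier3*) against 45% of all genes. *Fos*, *Fosb*, *Ier2* and *Dusp1* did not pass in any of these 3 fits. Some calls rested on few mice: without the mice lettered c, time did not pass in THRBWT for *Atf3* (adjusted p = 0.0734) and *Btg2* (0.157), and without those lettered a it did not pass in THRBKO for *Atf3* (0.0638). The list of 10 was not tested as a set against these shares.

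*Junb*, an AP-1 subunit that can restrain growth, had the smallest adjusted p for time of the members, 4.10e-06 in THRBWT and 2.46e-06 in THRBKO. At ZT6 it was at 27.8, 36.3 and 32.6 CPM in THRBWT and at 32.9, 26.1 and 24.3 CPM in THRBKO. At ZT22 it was at 13.9, 11.5 and 11.2 CPM in THRBWT and at 8.67, 11.7 and 7.15 CPM in THRBKO. Every ZT6 mouse lay above every ZT22 mouse, and the means fell from 32.2 ± 4.26 (SD, n = 3) to 12.2 ± 1.53 CPM in THRBWT and from 27.8 ± 4.57 to 9.19 ± 2.34 CPM in THRBKO. A fitted 24-h curve peaked at 6.78 h in THRBWT and 7.68 h in THRBKO, with a peak 2.78-fold and 2.96-fold above the trough.

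*Btg2* had the opposite course, with its lowest level at ZT6. At that time the THRBWT mice had 5.24, 7.31 and 4.90 CPM and the THRBKO mice 5.80, 3.63 and 4.49 CPM. At ZT14 they had 12.0, 10.5 and 9.86 CPM and 10.5, 11.3 and 12.9 CPM, so the ZT6 and ZT14 mice did not overlap in either genotype. The adjusted p for time was 0.00262 in THRBWT and 1.14e-05 in THRBKO. The low phase covered ZT6 in THRBWT (5.82 ± 1.31 CPM) and returned to 9.16 ± 1.43 CPM at ZT10, where THRBKO mice averaged 6.69 ± 1.18 CPM. This is the time at which the genotypes did not overlap, and the interaction did not pass the test.

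*Atf3*, which is induced by cellular stress and can repress its own promoter, was highest at ZT14 in both genotypes. The THRBWT mice had 1.68, 4.73 and 3.54 CPM and the THRBKO mice 3.31, 3.36 and 3.92 CPM at this time, and at ZT10 they had 1.21, 0.870 and 1.09 CPM and 0.808, 0.878 and 1.40 CPM. All ZT14 mice lay above all ZT10 mice. The adjusted p for time was 0.00236 in THRBWT and 0.00272 in THRBKO, and the fitted peaks were at 16.4 and 16.9 h.

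*Jun*, the main partner of FOS in AP-1, was also highest at ZT14, at 22.4, 30.2 and 26.7 CPM in THRBWT and 25.0, 19.9 and 25.7 CPM in THRBKO. It was lowest at ZT6 in both, at 13.2, 15.6 and 8.69 CPM and 13.1, 12.7 and 16.9 CPM. The ZT14 mice lay above the ZT6 mice in both genotypes. Time passed in THRBWT (adjusted p = 0.0208) and did not pass in THRBKO (0.377), where 1 mouse at ZT2 reached 26.2 CPM beside 15.1 and 10.4 CPM. The difference between genotypes in this course did not pass (interaction adjusted p = 0.9999). The call in THRBWT was lost without mouse b at ZT14 (adjusted p = 0.0744) or mouse c at ZT14 (0.0526).

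*Egr1* was lowest at ZT14, at 1.63, 1.16 and 1.43 CPM in THRBWT and 0.989, 2.10 and 2.51 CPM in THRBKO. At ZT2 it was at 3.07, 7.92 and 14.7 CPM and at 4.22, 3.64 and 12.8 CPM, above all ZT14 mice of the same genotype and with a wide spread. The adjusted p for time was 0.0533 in THRBWT and 0.0105 in THRBKO. The call in THRBKO rested on mouse b at ZT22: without this library the adjusted p was 0.224, and 0.0125 in THRBWT, since all 12 groups share the estimate of the spread. Leaving out each library in turn, *Egr1* passed in THRBWT in 9 of 36 fits. It also passed there with no filter on low counts (adjusted p = 0.00512) and with DESeq2 (0.000937).

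Under the assumption of a 24-h sine curve, 5 members passed in THRBWT (*Junb*, *Egr1*, *Jun*, *Btg2* and *Atf3*), against 33.1% of all genes. 5 passed in THRBKO (*Junb*, *Atf3*, *Ier3*, *Btg2* and *Egr1*), against 28.9%. Among members that passed, the fitted peak of *Egr1* was early in the light phase (2.65 h in THRBWT, 0.802 h in THRBKO) and that of *Junb* in the middle of it. The peaks of *Jun* in THRBWT (15.2 h) and, in THRBWT and THRBKO, of *Atf3* (16.4 and 16.9 h) and *Btg2* (17.9 and 19.3 h) were in the dark phase. *Ier3*, a protein linked to survival under stress, passed in THRBKO (adjusted p = 0.0203, peak at 11.4 h, shortly before lights off) and not in THRBWT (0.453). In THRBKO it averaged 1.35 ± 0.257 CPM at ZT10 and 0.672 ± 0.174 CPM at ZT2. *Egr1* had the widest fitted swing of the members that passed, 5.34-fold in THRBWT and 3.92-fold in THRBKO. Peaks and swings come from a separate cosinor, a 24-h curve fitted to log2 CPM, while the calls come from edgeR on counts. In the cosinor *Egr1* in THRBKO did not pass (adjusted p = 0.136). The THRBKO values include mouse b at ZT22 with 47.7 CPM.

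Among the members without a call for time, group means of *Dusp1* were between 24.4 ± 10.4 CPM at ZT6 and 64.8 ± 27.1 CPM at ZT14 in THRBWT, with an adjusted p for time of 0.139. *Dusp1* passed in THRBWT with no filter (0.0315) and without the mice lettered b (0.0408). At ZT10 in THRBWT the 3 mice had 77.4, 19.2 and 38.4 CPM, a 4.02-fold range at 1 time. *Fosb* in THRBKO passed for time only without mouse b at ZT14 (adjusted p = 0.0478, against 0.283 with it), and *Ier3* in THRBKO only without mouse b at ZT6 (0.0467, against 0.0987 with it), among the 36 libraries left out in turn. *Ier2* group means were between 28.7 and 36.2 CPM in THRBWT and between 25.9 and 38.7 CPM in THRBKO.

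The third question was the spread between mice sampled at the same time in the same genotype. It was measured as the standard deviation of log2 CPM about the mean of each group of 3 mice, pooled over the 12 groups. *Fosb* (1.09), *Fos* (0.986) and *Egr1* (0.984) lay at the 99.2, 98.8 and 98.8 percentiles of all 17994 genes, whose median was 0.259. *Dusp1* (0.622) and *Atf3* (0.510) lay at the 85.4 and 75.6 percentiles. *Ier3* (0.401), *Jun* (0.399), *Ier2* (0.319), *Junb* (0.273) and *Btg2* (0.231) lay between the 45.7 and 66.1 percentiles.

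Low counts widen such a spread, so each member was also set beside the genes of similar level, taken as 1 of 10 equal parts of the table ordered by level. There *Egr1* and *Dusp1* lay at the 98.9 percentile, *Fosb* at 98.7, *Fos* at 97.6, *Jun* at 96.1 and *Ier2* at 94.9. *Junb* (88.7), *Atf3* (86.6), *Btg2* (71.4) and *Ier3* (67.6) were lower. All 10 members thus lay above the median of their level, whereas over all genes 9 did, with *Btg2* below. Counting error alone at the mean count comes to 0.362 for *Fosb*, 0.239 for *Fos*, 0.246 for *Ier3* and 0.0374 for *Dusp1* on the same log2 scale. The biological coefficient of variation estimated by edgeR, from which counting error is removed, was 71.8% for *Fosb*, 61.0% for *Egr1*, 60.4% for *Fos*, 37.9% for *Dusp1* and 15.1% for *Btg2*, beside a median of 16.2% over all genes.

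**Figure D3:**
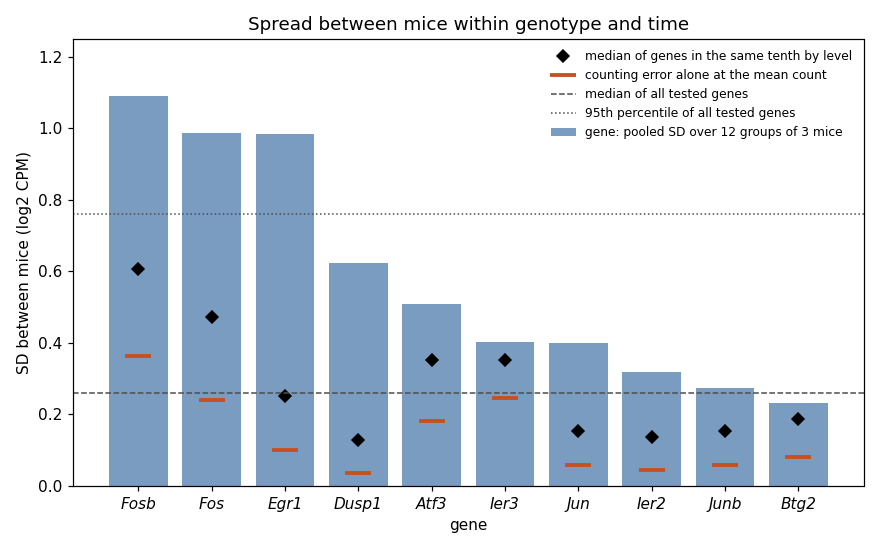
Pooled standard deviation between mice of a group, in log2 CPM (bars), for the 10 genes ordered by it, with the median of genes of similar level (diamonds), counting error alone (orange dashes) and the median and 95th percentile of all genes (lines). *Fosb*, *Fos* and *Egr1* stand above the 95th percentile of 0.762, and *Btg2* lies below the overall median.

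The share of a member's variance that lay within groups differed accordingly. It was 78.3% for *Fos*, 71.9% for *Ier2*, 69.8% for *Fosb* and 65.5% for *Dusp1*, the members without a call for time. It was 13.6% for *Junb* and 16.9% for *Btg2*, beside a median of 54.5% over all genes. This share and the test of time use the same values and are not independent.

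The widest ranges belonged to a few groups. *Fosb* at ZT6 in THRBWT was at 0.240, 1.37 and 0.0527 CPM, a 26.1-fold range that rested on 7, 47 and 2 counts, and *Fos* in the same mice spanned 13.6-fold. *Fosb* at ZT14 in THRBKO was at 0.0341, 0.784 and 0.0672 CPM (1, 28 and 3 counts), and *Fos* in these mice at 0.273, 2.63 and 0.649 CPM. In both groups mouse b was high in both genes. By contrast *Fos* at ZT18 stayed between 0.659 and 0.976 CPM in THRBWT and between 0.618 and 1.02 CPM in THRBKO. The range of 3 mice in *Btg2* was never above 1.60-fold.

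Spread did not differ between genotypes for any gene at an adjusted p under 0.05 (0% called), in a limma fit on the mean absolute deviation of each group. Unadjusted, 963 genes (5.35%) passed, among them 1 member: *Egr1*, whose pooled standard deviation was 0.805 in THRBWT and 1.13 in THRBKO (unadjusted p = 0.0361, adjusted p = 0.930).

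Members also tended to deviate together in the same mouse. Over the 36 livers, the correlation of deviations from the group mean had a median of 0.223 over the 45 pairs of members, with 39 pairs above 0 and a range from -0.09 to 0.784. These are descriptions: the 36 points share group means and library totals, and the pairs share genes. Pairs of other genes were not measured in this way, so no background stands beside these values. The closest pairs were *Fos* with *Fosb* (Pearson's r = 0.784, Spearman's rho = 0.630), *Jun* with *Atf3* (0.695, 0.769), *Ier3* with *Btg2* (0.634, 0.623) and *Fos* with *Atf3* (0.565, 0.592). Without the 2 mice farthest from the median in the first gene, r was 0.711, 0.752, 0.560 and 0.370. *Fosb* with *Ier3* had the lowest r, -0.09. *Egr1* went with *Fos* only moderately (r = 0.428). The THRBKO mouse with the highest *Egr1*, mouse b at ZT22, also had the highest *Fos* of its group, 1.56 CPM beside 0.718 and 1.39 CPM. This mouse deviated from its group mean by 2.14 (log2) in *Egr1* and by 0.407 in *Fos*. It was the highest of its group in 6 of 10 members.

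**Figure D4:**
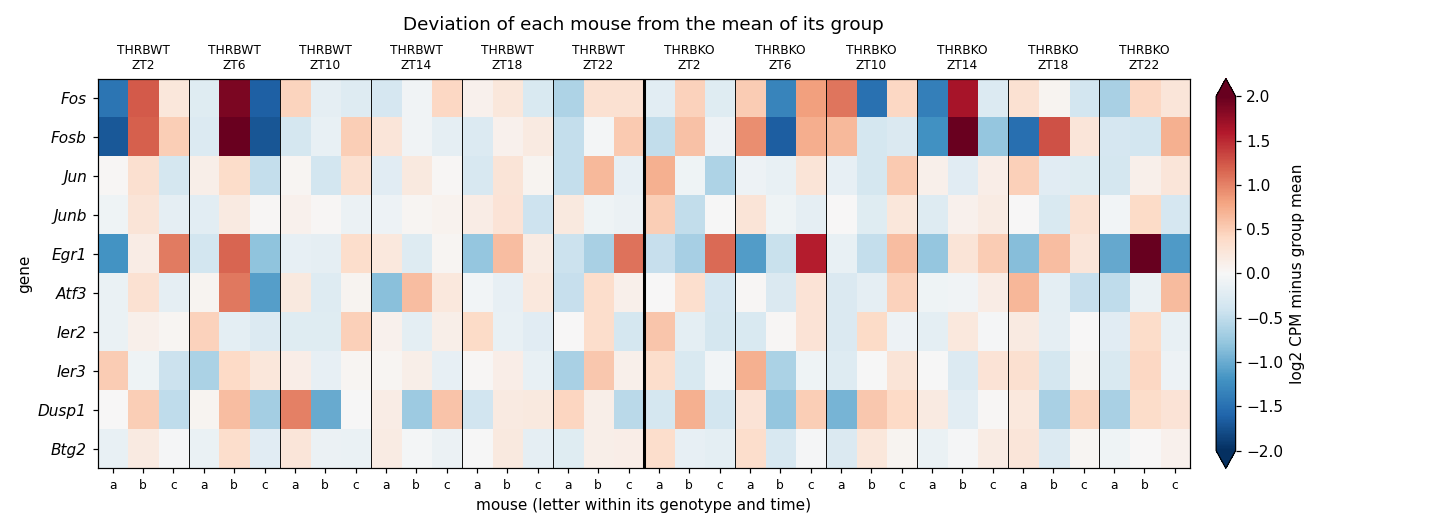
Deviation of each mouse from the mean of its group in log2 CPM (colour, saturated beyond 2) for the 10 genes (rows) in 36 livers (columns, letters a to c within genotype and time). Mouse b of THRBWT at ZT6 is above its group mean in most genes and mouse c below, and the rows of *Fos*, *Fosb* and *Egr1* have the strongest colours.

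With the 2 mice farthest from the median in its first gene left out of each pair, the median r over the 45 pairs was 0.212. In some groups 1 mouse was highest or lowest in most members. In THRBWT at ZT6, mouse b had the highest value of its group in 9 of 10 members and mouse c the lowest in 8. Their mean deviations over the members were 1.72-fold and 0.631-fold of the group mean. Such a mean takes the log2 deviations of the members as they are, so *Fosb*, *Fos* and *Egr1*, which varied most, weigh most in it. In THRBWT at ZT2, mouse b was highest in 8 members. In THRBKO at ZT6, mouse b was lowest in 7, and so were mouse a at ZT14 and mouse a at ZT22. At other times the members split: in THRBWT at ZT14 each mouse was highest in 3 or 4 of the 10.

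What the letters a, b and c stand for is not given in the sources used here. The labels also carry a number for each library, lower for every mouse a than for any mouse b or c. What these numbers stand for is not given either. A test of the letter with the 12 groups as covariates called 0 members, against 5.19% of all genes, and 1 member unadjusted, against 20.4%. That member was *Egr1*, with an adjusted p of 0.0845 in edgeR's fit across all genes. It averaged -0.59 (log2) from its group means in mice a, 0.19 in mice b and 0.40 in mice c. Mice c had the highest *Egr1* in 7 of the 12 groups and mice a in 1. *Fos* had its highest value in mouse b in 7 of 12 groups.

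The mean deviation of the members in a mouse went little with library totals (r = 0.05). Its correlation with the summed markers of 8 cell types was between -0.17 (4 neutrophil markers, of which 2 were tested) and 0.290 (4 cholangiocyte markers). It was 0.256 for 6 hepatocyte markers and -0.02 for 6 Kupffer cell and macrophage markers. In a sum of CPM the most abundant markers weigh most, and the single hepatocyte markers were split. Their r was 0.345 for *Alb*, 0.185 for *Cps1* and 0.021 for *Ahsg*. It was -0.243 for *Ttr*, -0.263 for *Apoa1* and -0.497 for *Serpina1c*. The erythroid markers were split as well, from -0.551 for *Alas2* to 0.329 for *Hba-a2*. None of the markers was at 0 in all livers. In bulk liver, more cells of a type and more RNA per cell cannot be told apart, and the part of cell composition in the spread was not tested beyond these values.

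In the mean of the members *Fosb*, *Fos* and *Egr1* weigh most, since they varied most. Its median correlation with 11911 other genes was -0.00525, with 65 genes above 0.5 and 82 below -0.5. Among these genes, all with a mean of at least 50 counts, the deviations most like the mean of the members over the 36 livers were those of *Ugt1a9* (r = 0.703), *Grn* (0.661), *Ifi204* (0.651), *Cyp4a14* (0.647), *Cacna1d* (0.638), *C9orf72* (0.634), *Aig1* (0.618), *Acadm* (0.617), *Klf6* (0.604) and *Maff* (0.601). Without the 2 mice farthest from the median, r fell to 0.395 for *Aig1* and 0.474 for *Acadm* and was between 0.548 and 0.702 for the other genes, so the order depends on few livers. 2 of these 10, *Klf6* and *Maff*, are themselves immediate early genes. *Ugt1a9* belongs to a gene cluster with shared exons, so its reads may be split between copies. From lists of related genes, *Dusp8* (0.588), *Klf10* (0.522), *Plk3* (0.456) and *Fosl2* (0.449) followed. Among those that did not go with the members were *Jund* (-0.00223), *Rhob* (-0.00896) and *Per1* (-0.111).

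Other immediate early genes were read from 4 lists. None was called for genotype with time as a covariate (adjusted p under 0.05), against 0.95% of all genes. At an unadjusted p under 0.05, 1 of 8 other AP-1 and bZIP factors and 2 of 10 zinc finger and orphan receptor factors passed. So did 2 of 12 feedback phosphatases and inhibitors and 4 of 14 stress and growth effectors, against 12.1% of all genes. For time in THRBWT, 3 of 8 other AP-1 and bZIP factors passed (*Maff*, *Cebpd* and *Cebpb*), and 3 in THRBKO (*Maff*, *Jund* and *Cebpb*), beside the shares of 26.4% and 24.9% above. *Maff*, a small Maf factor, had its highest mean at ZT6 in THRBWT (9.21 ± 3.34 CPM) and at ZT10 in THRBKO (10.5 ± 3.05 CPM), and its lowest at ZT22 in both (1.78 ± 0.363 and 2.04 ± 0.450 CPM). *Cebpb*, a liver bZIP factor, was highest at ZT10 in both (128 ± 26.8 and 132 ± 21.7 CPM).

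Of 10 tested zinc finger and orphan receptor factors, *Klf10* and *Nr4a2* passed for time in THRBWT and *Klf10* in THRBKO, against 26.4% and 24.9% of all genes, the shares to be read beside each of the following counts. *Klf10*, a TGF-beta inducible factor, averaged 30.5 ± 14.9 CPM at ZT10 in THRBWT and 33.6 ± 17.5 CPM at ZT6 in THRBKO, and was lowest at ZT22 in both (9.07 ± 2.65 and 8.48 ± 3.50 CPM). Of 12 feedback phosphatases and inhibitors, 4 passed in each genotype, *Spry4* and *Nfkbia* in both. *Spry4*, an inhibitor of receptor tyrosine kinase signalling, was at 13.4 CPM at ZT10 and 4.40 CPM at ZT18 in THRBWT, with means of 13.4 and 4.60 CPM at the same times in THRBKO. *Nfkbia*, the inhibitor of NF-kappaB, had its highest mean at ZT10 (49.9 and 51.6 CPM) and its lowest at ZT22 (25.2 and 29.5 CPM).

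Of 14 stress and growth effectors found in the table, 7 passed for time in THRBWT and 5 in THRBKO (26.4% and 24.9% of all genes), *Cdkn1a*, *Per1*, *Mcl1* and *Plk3* in both. *Cdkn1a*, a cell cycle inhibitor, averaged 28.3 ± 6.32 CPM at ZT22 and 1.09 ± 0.385 CPM at ZT10 in THRBWT, and 27.0 ± 9.90 and 1.03 ± 0.280 CPM in THRBKO. *Per1*, which is both a clock gene and an immediate early gene, was highest at ZT10 (82.2 ± 20.4 and 101 ± 28.1 CPM) and lowest at ZT2. Of 16 upstream kinases and factors, 5 passed in THRBWT and 6 in THRBKO, *Mapk14*, *Mapk3*, *Rps6ka1* and *Mkl2* in both. All 6 heat shock genes read beside them passed in both genotypes, with *Hspa1b* at 98.1 ± 30.5 CPM at ZT14 and 7.76 ± 1.06 CPM at ZT22 in THRBWT.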

How the data were processed

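Liver RNA of 36 mice was read as counts per gene made by the authors: per the labels, non-directional poly-A libraries were aligned to GRCm38 (mm10) with HISAT2 and counted with featureCounts, whose versions, annotation release and treatment of multi-mapped reads are not given in the sources used here. The deposited counts were kept for genes summing to 100 or more (17994), scaled by TMM and tested with edgeR 4.0.16 (R 4.3.3; quasi-likelihood, Benjamini-Hochberg adjustment over all tested genes). Fits were genotype with or without time as a covariate, a 12-group model for single times, time and interaction, and a 24-h sine and cosine. Levels are TMM-scaled CPM, and log2 CPM used a prior count of 2. Fitted peaks and swings came from a cosinor on log2 CPM, and rhythm calls from the edgeR fit. Spread by genotype was tested with limma 3.58.1 on 1 mean absolute deviation per group in place of 1 value per mouse as designed, since the latter called unchanged genes too often when tested on simulated data. DESeq2 1.42.0, other filters and scalings, letters as blocks and left-out mice were alternatives. Over all tested genes, same-lettered mice of THRBWT and THRBKO at a time had deviations that correlated at r between -0.038 and 0.225. The median r was 0.102, and 9 of 18 pairs were above 0.1. The main fits did not take letters as pairs, so such likeness is not removed from them. The members and lists were chosen with earlier results of these data known. Named were all members, from each list up to 4 genes with an adjusted p under 0.05, and the 10 genes most like the members. Named outside this rule, after their values were seen, were *Jund*, *Rhob*, *Plk3* and *Per1* in part, *Dusp8*, *Fosl2*, *Dbp* and *Hspa1b*. So were the single hepatocyte and erythroid markers. Precision is limited by the counts per library given with the levels.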

Additional observations from a re-analysis of the deposited data

How the results depend on the processing

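No alternative called a member for genotype, for the interaction or for a difference in rhythm. Counts of all genes moved: genotype at single times, 21 genes summed over the 6 times, gave 43 with no filter. With no filter *Egr1* (adjusted p = 0.00512) and *Dusp1* (0.0315) also passed for time in THRBWT, which made 6 members in place of 4. With the replicate block, that is the mouse letter within time, genotype gave 387 genes with time as a covariate and 387 without it (the block already holds time), and 36 at single times. Letters were not taken as pairs in the main fits. In the fits of time and of rhythm the block was the letter alone. Under the blocks no member lost a call, and *Egr1* passed for time in THRBWT (adjusted p = 0.0287). DESeq2 gave 306 genes for genotype with time, 99 without it and 51 at single times. It also called *Egr1* for time in THRBWT (adjusted p = 0.000937) and *Fosb* for rhythm in THRBKO (0.0357). Leaving out all mice of 1 letter, or 1 library at a time where run, gave between 40 and 236 genes for genotype with time, 16 to 24 without it and 7 to 18 at single times. For time it gave 2194 to 4851 genes and 1 to 5 members in THRBWT, and 1909 to 4561 genes and 2 to 5 members in THRBKO. For rhythm it gave 3113 to 4006 genes and 2 to 5 members in THRBWT, and 2343 to 3188 genes and 2 to 4 members in THRBKO. *Junb* kept its call in every one of these fits. Leaving out 1 letter lost other calls. The rhythm of *Btg2* in THRBKO was lost without any of the 3 letters (adjusted p between 0.0604 and 0.163), and so was time for *Jun* in THRBWT (0.057 to 0.218). Time was lost without c for *Atf3* (0.0734) and *Btg2* (0.157) in THRBWT, without a for *Atf3* in THRBKO (0.0638), and without a or b for *Egr1* in THRBKO (0.0634 and 0.270). Rhythm was lost without c for *Jun* (0.0793), *Atf3* (0.185) and *Btg2* (0.0575) in THRBWT, without a for *Atf3* in THRBWT (0.0515), and in THRBKO without a for *Egr1* (0.0662) and *Atf3* (0.0770) and without a or c for *Ier3* (0.0552 and 0.325). Calls were gained without b for time of *Dusp1* in THRBWT (0.0408) and of *Fosb* in THRBKO (0.0475), and without a for rhythm of *Fosb* in THRBKO (0.0408). The cosinor on log2 CPM lost the rhythm of *Egr1* in THRBKO (adjusted p = 0.136). The uncalled genotype estimate of *Egr1* was between 0.0474 and 0.53 and that of *Fos* between -0.54 and -0.0853 with mice left out, and that of *Egr1* was 0.187 with the replicate block. The sign of 5 uncalled genotype estimates turned when mice were left out: *Jun* was between -0.10 and 0.27 (log2), *Ier2* between -0.0949 and 0.0483, *Ier3* between -0.11 and 0.18, *Dusp1* between -0.22 and 0.15 and *Btg2* between -0.134 and 0.0219. With 2 mice per group fewer samples are tested. The median spread of the members (0.456) was between 0.457 and 0.492 under its alternatives. The median correlation of pairs (0.223) was between 0.193 and 0.234. It was 0.212 with the 2 mice farthest in the first gene left out of each pair. The limit of *Fosb*, *Fos*, *Ier3* and *Atf3* was their low count per library, and each single time rested on 3 mice per genotype.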
